A study of Mus musculus with 47 samples.

Results

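Striatal RNA of Q140 mice homozygous for a Ccdc82 mutation (Q140 Ccdc82-/-) was compared with striatal RNA of Q140 mice without it. The samples were taken by their genotype labels, and earlier results of these data were known when the genotypes to compare were chosen. The comparison used 15 of the 47 libraries of the study: 7 Q140 Ccdc82-/- libraries (3 females, 4 males) and 8 Q140 libraries (4 females, 4 males). All genes were examined.

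Mice of both groups carried 1 expanded-CAG knock-in allele of Htt (heterozygous Q140 KI), were on a C57BL background and were dissected at 6 months of age. The Q140 Ccdc82-/- mice carried in addition 2 mutant copies of Ccdc82. The labels do not say what the Ccdc82 mutation is, and Q140 is a germline allele present in every cell type. Ccdc82-/- mice (8) and wild-type mice (WT, 8) with no knock-in allele gave the same contrast without Q140. Q140 Ccdc82+/- mice (8) and Ccdc82+/- mice (8) gave the Q140 effect in libraries that do not enter the main comparison. Each library is taken as 1 mouse.

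Huntington's disease is caused by an expanded CAG repeat in HTT, and the medium spiny neurons (MSN) of the striatum are the cells it affects most. In knock-in mice these neurons lose expression of their identity genes, among them those for neuropeptides, dopamine receptors and cyclic nucleotide signalling. Human genetic studies of age at onset have found modifier loci, many at DNA mismatch repair genes, and one of these loci holds CCDC82, which encodes a coiled-coil domain protein. The comparison asked what homozygous mutation of the mouse gene does to the striatal transcriptome when the Q140 allele is present.

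Ccdc82 (ENSMUSG00000079084) lies on chromosome 9 of GRCm38 from 13246955 to 13292520 on the plus strand. GENCODE lists 6 transcripts for it. Its nearest neighbour, Jrkl (13242607 to 13245829), runs on the minus strand, so that the genes stand head to head with 1126 bp between their starts. The 246 bases before the annotated start of Ccdc82 (chr9:13246709-13246954, plus strand, RefSeq promoter table, build GRCm38.p6) are printed because they lie between the gene that changed in this comparison and a neighbour that did not pass the test. Capitals mark GGGCGG, the core of a GC box.

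Ccdc82 promoter: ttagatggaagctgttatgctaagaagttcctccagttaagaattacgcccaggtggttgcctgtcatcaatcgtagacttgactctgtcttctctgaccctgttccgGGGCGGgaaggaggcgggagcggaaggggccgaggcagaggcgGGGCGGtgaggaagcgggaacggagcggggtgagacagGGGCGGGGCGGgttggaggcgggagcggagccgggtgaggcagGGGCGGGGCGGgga

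The motif occurred 6 times on the plus strand and 0 times on the minus strand, and each of the longer capital runs holds 2 matches that overlap by 1 base. Of 32841 promoter windows of the same length, 10688 (32.5%) held GGGCGG on either strand. A match describes the letters of the window and is not evidence of binding.

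Ccdc82 mRNA was lower in every Q140 Ccdc82-/- library than in every Q140 library. Levels are given as CPM, read counts per M counts after edgeR's TMM scaling of library sizes. The female Q140 Ccdc82-/- mice had 3.67, 3.93 and 4.47 CPM and the males 4.86, 5.32, 5.35 and 4.32 CPM. The Q140 females had 10.9, 12.7, 12.8 and 11.6 CPM and the Q140 males 11.6, 12.5, 11.04 and 10.11 CPM. The groups did not overlap, and the highest Q140 Ccdc82-/- value, 5.35 CPM in a male, was far below the lowest Q140 value, 10.11 CPM in another male.

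Mean Ccdc82 was 4.56 ± 0.652 CPM in Q140 Ccdc82-/- (SD, n = 7) and 11.63 ± 0.952 CPM in Q140 (SD, n = 8), so 39.2% of the Q140 level remained. An exact two-sided permutation test over the 6435 arrangements of the libraries gave p = 0.0001554, the smallest it can give. In edgeR's quasi-likelihood test the log2 fold change was -1.36 ± 0.07 (SE), with a 95% interval of -1.50 to -1.21 and a Benjamini-Hochberg adjusted p of 1.63e-19. Raw counts of Ccdc82 per library lay between 167 and 297 in Q140 Ccdc82-/-, and between 522 and 666 in Q140, so the remaining signal was well above a count of 0. The gene-level counts do not show which part of the transcript remains or whether it encodes protein.

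**Figure D1:**
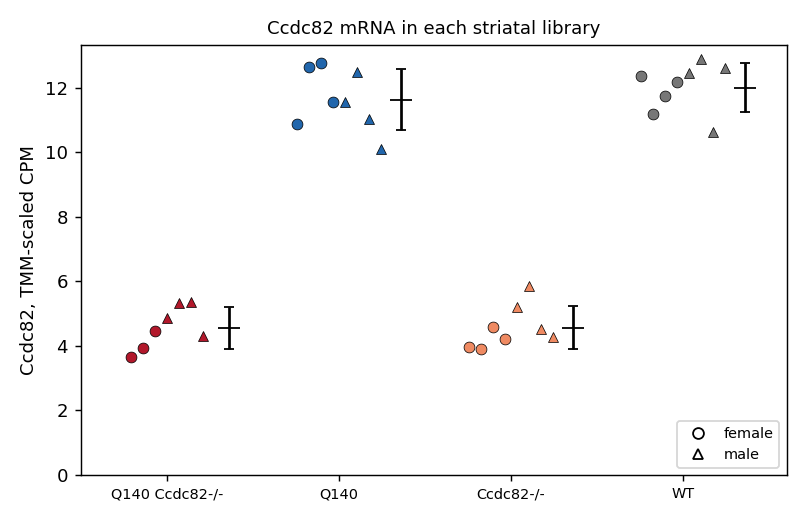
Ccdc82 mRNA in TMM-scaled CPM (vertical axis) in each library of 4 genotypes; circles are females, triangles males, and the bars at the right of each group show mean and SD. The 7 Q140 Ccdc82-/- libraries lie at 3.67 to 5.35 CPM, below the 8 Q140 libraries at 10.11 to 12.8 CPM, and the Ccdc82-/- and WT libraries without Q140 repeat that gap.

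The same mutation without Q140 left a similar level. Ccdc82 averaged 4.57 ± 0.666 CPM in Ccdc82-/- mice and 12.01 ± 0.772 CPM in WT mice (SD, n = 8 each), a log2 fold change of -1.40 ± 0.07 (SE, edgeR adjusted p = 1.324e-20). The difference between the effects with and without Q140 was 0.04 ± 0.10 on the log2 scale and did not pass the test (edgeR adjusted p = 0.998).

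Ccdc82 was also read within each sex and plate column. Females had 4.02 CPM in Q140 Ccdc82-/- (n = 3) and 11.96 CPM in Q140 (n = 4). Males had 4.96 CPM in Q140 Ccdc82-/- and 11.3 CPM in Q140 (n = 4 each). The male effect minus the female effect was 0.38 ± 0.14 (SE, unadjusted p = 0.00739), which did not pass adjustment over all genes (edgeR adjusted p = 0.749). The wells in the labels spread the groups unevenly over the plate: column 5 held 4 Q140 Ccdc82-/- libraries and 1 Q140 library. The means there were 5.0 CPM in Q140 Ccdc82-/- and 12.8 CPM in Q140. Column 1 gave 4.32 CPM (1 library) and 11.2 CPM (3 libraries) for Q140 Ccdc82-/- and Q140, and column 3 gave 3.93 CPM (1 library) and 12.2 CPM (3 libraries) in the same order. The other 2 columns that held these groups had libraries of 1 group only.

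No other gene passed the test as fitted with genotype and sex. Of 19193 genes tested across the whole transcriptome, 1 was called (0.00521%), and that was Ccdc82. DESeq2 on the same counts and limma on the deposited FPKM values also called Ccdc82 and no other gene. Without adjustment, 712 genes (3.71%) had p under 0.05, 396 higher and 316 lower in Q140 Ccdc82-/-. The median log2 fold change over all tested genes was 0.00067.

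The count of 1 gene depended on how 1 further grouping of the libraries entered the fit. The library names carry a number shared by libraries of 1 sex (19 numbers over the 47 libraries), and the labels do not say what it marks. With that number as a fixed block in edgeR, tried after the data were seen, 10 genes were called (0.0521%), 2 higher and 8 lower in Q140 Ccdc82-/-, and 2723 genes (14.19%) had an unadjusted p under 0.05. Only 2 of the 10 numbers among these 15 libraries hold libraries of both genotypes, so most of that fit compares the genotypes through the other groups. Apart from Ccdc82 (-1.37), the called genes all had an adjusted p of 0.0489 and small log2 fold changes. Abcb1b, a drug efflux transporter, was at 0.44 and Cpne2, a copine, at 0.29. Gpr17, a receptor of oligodendrocyte precursors, was at -0.37, Magi3, a scaffold protein, at -0.19, Pag1, an adaptor of Src family kinases, at -0.18, and Tjp1, the tight junction protein ZO-1, at -0.18. Setd7, a lysine methyltransferase, was at -0.17, Pom121, a nuclear pore protein, at -0.16, and Gbf1, an exchange factor for Arf GTPases, at -0.15. In the fit with genotype and sex these 9 genes had the same signs, smaller log2 fold changes and adjusted p-values of 0.9997. Their values there ran from -0.13 (Gpr17) to 0.22 (Abcb1b), with Pom121 at -0.03 and Gbf1 and Setd7 at -0.04. With the number as a random block in limma, Ccdc82 was the 1 gene called (-1.35).

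Q140 Ccdc82-/- libraries held 42.2 to 55.7 M counts, and Q140 libraries 43.8 to 61.7 M. The median half-width of the 95% interval was 0.088 on the log2 scale over the 13938 genes whose mean log2 CPM reached 1. The whole interval lay within a 1.2-fold change in either direction for 12464 of them (89.4%) and within a 1.5-fold change for 13819 (99.15%). These intervals use the spread pooled over all 47 libraries, are not adjusted for the number of genes and leave out the genes at lower levels. Besides Ccdc82, the estimates of 4 of these genes went past 1.5-fold: Fmo2, Zbtb16, AC149090.1 and Ccdc153, the last 3 named here after their values were seen. None of the 4 passed the test.

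Htt itself, which encodes huntingtin and carries the Q140 allele (chromosome 5, 34761740 to 34912534), averaged 196 ± 6.38 CPM in Q140 Ccdc82-/- and 199 ± 12.1 CPM in Q140 (SD, n = 7 and 8). The log2 fold change was -0.02, with a 95% interval of -0.08 to 0.04. Counts over the gene do not separate the expanded from the normal allele.

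None of the MSN genes passed the test. The canonical ones described first were picked after their values were seen; the members of the MSN lists with the smallest p-values are given further on. Penk, the enkephalin precursor of indirect pathway neurons, had 723.1 to 859.2 CPM (median 798) in Q140 Ccdc82-/- and 740.4 to 927.2 CPM (median 812.8) in Q140. The groups overlapped over most of their range, and the log2 fold change was -0.05 (95% interval -0.13 to 0.04).

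Drd1, the dopamine receptor of direct pathway neurons, averaged 261.3 ± 13.6 CPM in Q140 Ccdc82-/- and 262.2 ± 21.1 CPM in Q140 (SD), a log2 fold change of -0.007 (95% interval -0.08 to 0.06). Drd2, the dopamine receptor of indirect pathway neurons, averaged 158.7 ± 7.05 CPM in Q140 Ccdc82-/- and 162.7 ± 10.4 CPM in Q140 (log2 fold change -0.03, 95% interval -0.12 to 0.05). Adora2a, the adenosine receptor of the same neurons, averaged 262.4 ± 16.5 CPM in Q140 Ccdc82-/- and 266.8 ± 27.0 CPM in Q140. All 3 receptors overlapped between the groups.

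The groups also overlapped for genes of cyclic nucleotide signalling. Pde10a, a striatal phosphodiesterase, averaged 1481 ± 79.9 CPM in Q140 Ccdc82-/- and 1498 ± 117 CPM in Q140 (log2 fold change -0.02, 95% interval -0.11 to 0.08). Ppp1r1b, which encodes the phosphatase inhibitor DARPP-32, averaged 1762 ± 68.8 CPM in Q140 Ccdc82-/- and 1763 ± 126 CPM in Q140. Adcy5, the main striatal adenylyl cyclase, had a log2 fold change of -0.02 (95% interval -0.09 to 0.05), and Pde1b, a calcium-dependent phosphodiesterase, one of -0.02 (-0.08 to 0.04). Rgs9, a regulator of G protein signalling, had 0.01 (-0.07 to 0.09), and Bcl11b, a transcription factor of MSN, had -0.01 (-0.07 to 0.05). Each of these intervals excludes a 1.2-fold change in either direction.

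**Figure D2:**
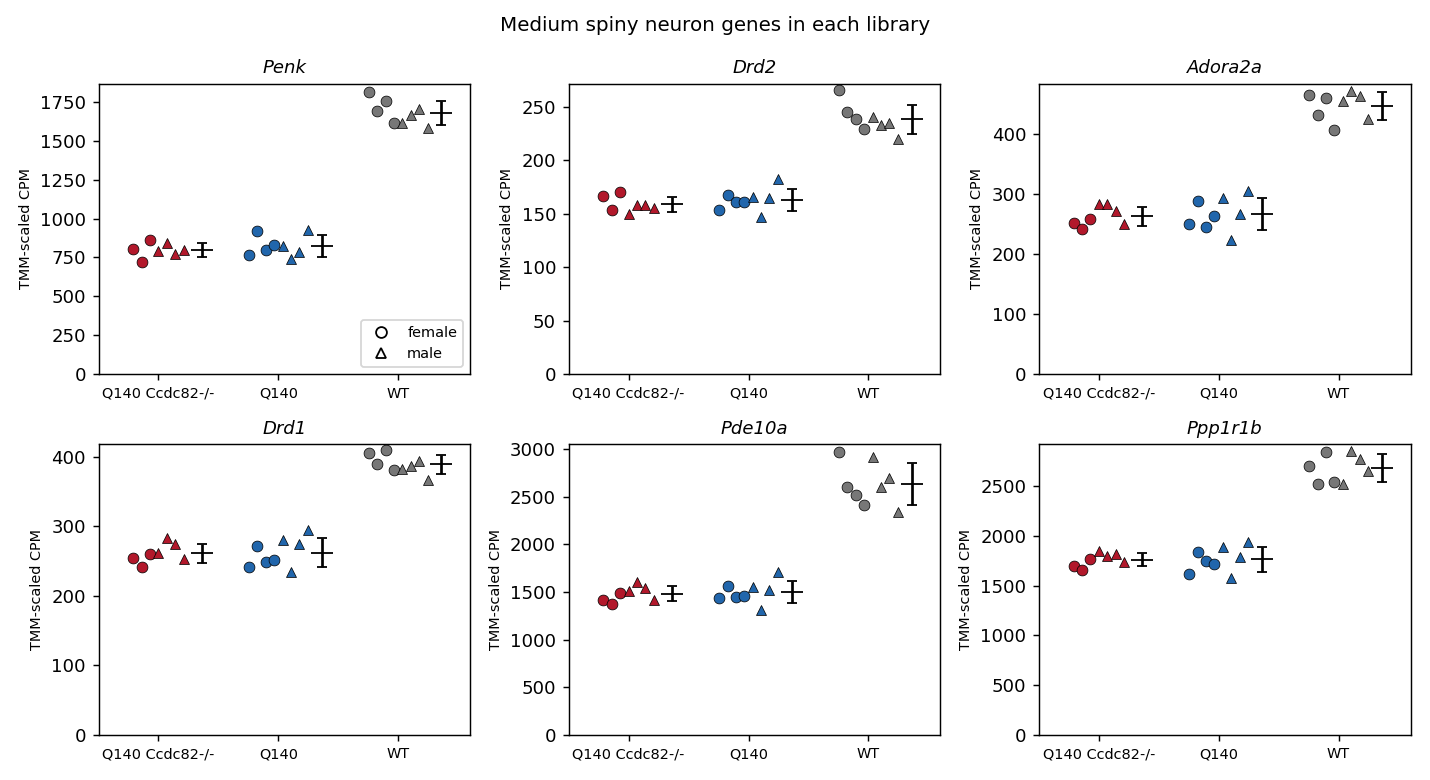
TMM-scaled CPM of 6 MSN genes (1 panel each, axis from 0) in every Q140 Ccdc82-/-, Q140 and WT library; circles are females, triangles males, bars mean and SD. Q140 Ccdc82-/- and Q140 libraries overlap in every panel (Penk 723.1 to 859.2 CPM in Q140 Ccdc82-/- and 740.4 to 927.2 CPM in Q140), and both lie below the WT libraries.

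The Q140 effect as a whole was read from genes defined in other mice. Between Q140 Ccdc82+/- and Ccdc82+/- libraries, 6726 of 19193 genes (35%) passed edgeR's test, 3524 higher and 3202 lower in Q140 Ccdc82+/-. None of these genes passed between Q140 Ccdc82-/- and Q140, where 0.00521% of all genes did, although Magi3, Tjp1, Cpne2 and Setd7 are among them and passed with the library number as a fixed block. The 3524 higher genes had a median log2 fold change of -0.0019 between Q140 Ccdc82-/- and Q140, and 48.4% of them were above 0. The 3202 lower genes had a median of -0.0061, and 42.9% of them were above 0. Over all genes 50.5% were above 0. Between Ccdc82-/- and WT, 47.8% of the higher genes and 53.7% of the lower genes were above 0. In the mice that defined them, the medians were 0.18 and -0.22.

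Across the 6726 genes, which are not independent replicates, the 2 sets of log2 fold changes had a Pearson r of 0.11 and a Spearman rho of 0.10. With Ccdc82-/- against WT in place of the main comparison, the Pearson r was -0.036. A score per library, the mean log2 CPM of the higher genes minus that of the lower genes, was -0.42 ± 0.03 in Q140 Ccdc82-/- (SD, range -0.48 to -0.39) and -0.43 ± 0.06 in Q140 (range -0.52 to -0.35). It was -0.93 ± 0.04 in WT. The groups with Q140 differed by 0.01, against 0.50 between Q140 and WT. The range of the Q140 Ccdc82-/- libraries fell inside that of the Q140 libraries.

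**Figure D3:**
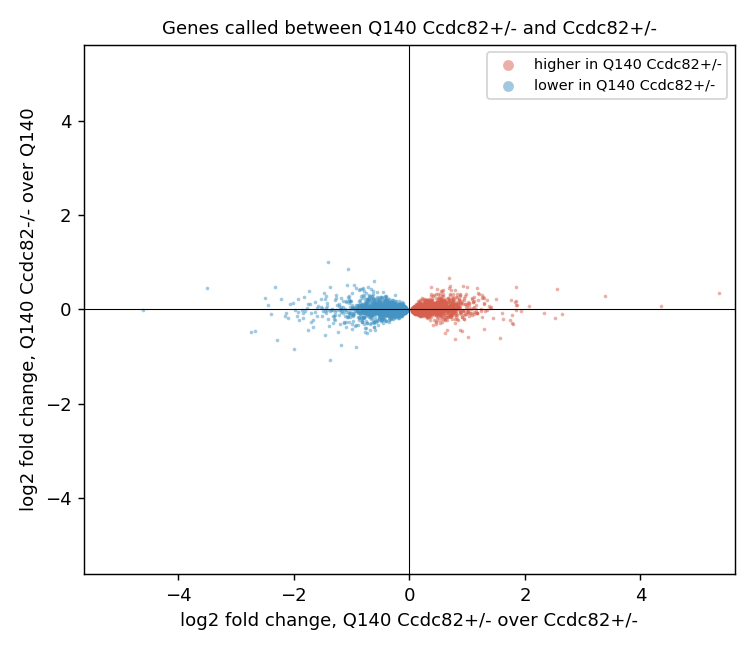
Log2 fold change between Q140 Ccdc82-/- and Q140 (vertical axis) against that between Q140 Ccdc82+/- and Ccdc82+/- (horizontal axis) for the 6726 genes called between Q140 Ccdc82+/- and Ccdc82+/-, 1 point per gene; both axes have the same scale. The points spread far more along the horizontal than along the vertical axis, where the medians of the higher and lower genes are -0.0019 and -0.0061.

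The 10 genes in each direction with the largest fold changes in those mice, among called genes with a mean log2 CPM of 1 or more, did not pass between Q140 Ccdc82-/- and Q140. Sfmbt2, a Polycomb-related gene with a log2 fold change of 1.94 in the defining mice, averaged 8.68 ± 1.49 CPM in Q140 Ccdc82-/- and 8.89 ± 1.48 CPM in Q140. Mafa, a transcription factor gene at -2.45 in the defining mice, averaged 0.715 ± 0.221 CPM in Q140 Ccdc82-/- and 0.687 ± 0.185 CPM in Q140. Over these 20 genes the log2 fold changes between Q140 Ccdc82-/- and Q140 ran from -0.45 (Wnt8b, a Wnt ligand) to 0.35 (Nts, the neurotensin precursor).

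Gene lists for cell types and pathways were described by their counts and medians, beside the median of 0.00067 and the 0.00521% called over all genes. The share of all genes at unadjusted p under 0.05 in edgeR was 3.71%, 396 higher and 316 lower of 19193. Of 33 lists, 27 had a median log2 fold change between -0.05 and 0.05, and no member other than Ccdc82 passed the test (Gpr17 did with the library number as a fixed block). In bulk tissue, fewer cells of a type and less RNA per cell cannot be told apart.

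The 28 MSN identity genes had a median of -0.02, with 0 members higher and 2 lower at unadjusted p under 0.05. The 3 smallest p-values were those of Arpp19, a regulator of phosphatase 2A (-0.09, unadjusted p = 0.00411), Ddit4l, an inhibitor of mTOR signalling (-0.23), and Actn2, an alpha-actinin (-0.06). Arpp19 averaged 448.8 ± 12.8 CPM in Q140 Ccdc82-/- and 479.3 ± 16.4 CPM in Q140, and it had an adjusted p of 0.9997 in edgeR. The same 28 genes had a median of -0.45 between Q140 Ccdc82+/- and Ccdc82+/-, where 26 fell and 2 rose and 35% of all genes passed.

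Of the 9 indirect pathway genes tested, with a median of -0.03, Upb1, an enzyme of pyrimidine breakdown, had the smallest p (-0.34, unadjusted p = 0.0107). Penk and Adk, the adenosine kinase gene (0.03), followed. The 11 direct pathway genes had a median of -0.007. Their smallest p-values were those of Crabp1, a retinoic acid binding protein (-0.14), Pdyn, the dynorphin precursor (0.17), and Isl1, a transcription factor (-0.06). Tac1, the substance P precursor, was at 0.02. The 13 interneuron genes had a median of -0.02, led by Th (-0.17), Slc18a3 (-0.07) and Htr3a (-0.15), with 0 below an unadjusted p of 0.05.

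**Figure D4:**
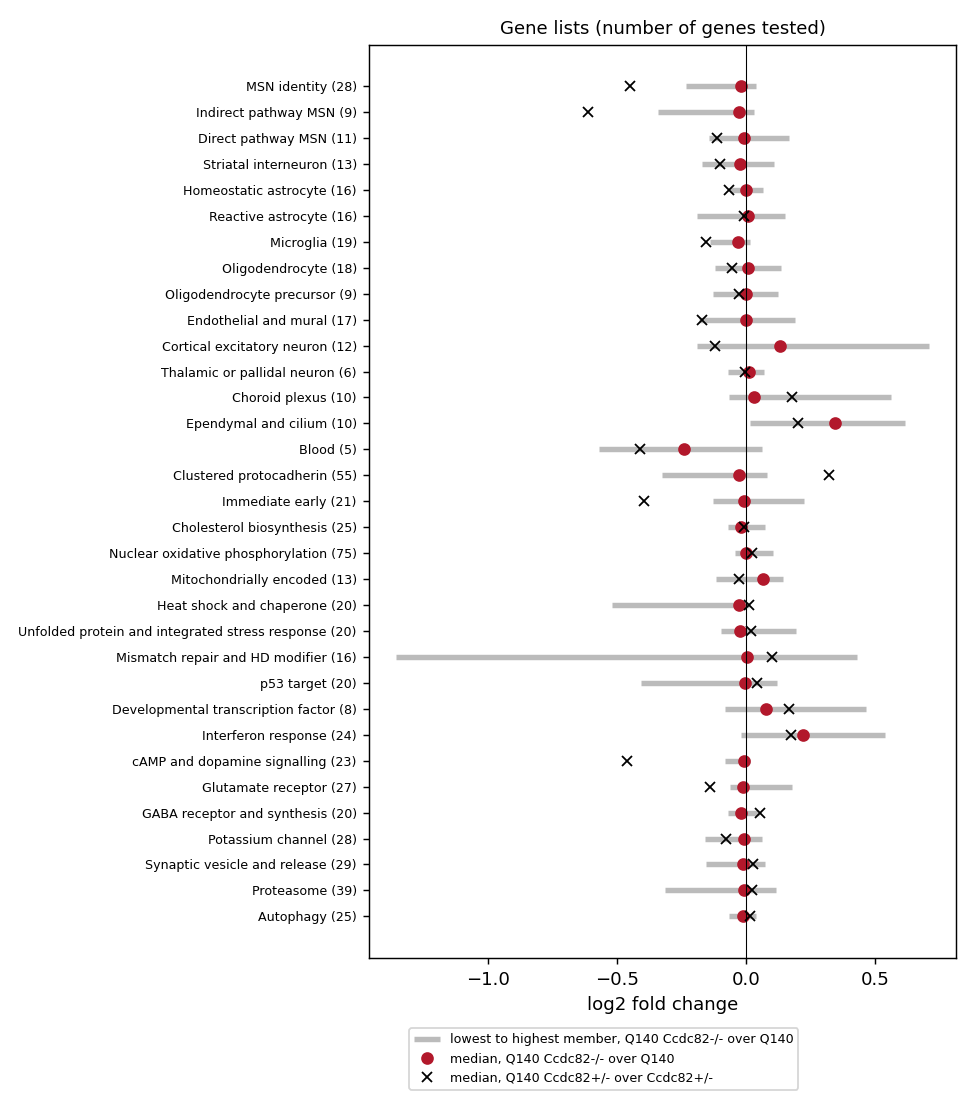
Log2 fold change (horizontal axis) for 33 gene lists, with the number of genes tested in brackets: red points are list medians between Q140 Ccdc82-/- and Q140, grey bars the range of the members, and crosses the medians between Q140 Ccdc82+/- and Ccdc82+/-. The red points of 27 lists lie between -0.05 and 0.05, whereas the crosses of MSN identity and of cAMP and dopamine signalling lie at -0.45 and -0.46.

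Glial and vascular lists also stayed near 0. The 16 homeostatic astrocyte genes had a median of 0.001 (Slc1a3 -0.06, S100b -0.06, Mlc1 0.05), and the 16 reactive astrocyte genes one of 0.009 (Cd44 0.15, Fbln5 -0.13, Vim 0.12). Gfap, the astrocyte filament gene, was at 0.02 with a wide 95% interval of -0.40 to 0.45. The 19 microglial genes had a median of -0.03, with 2 lower at unadjusted p under 0.05: Trem2, a lipid receptor (-0.14), and Gpr34, a lysophospholipid receptor (-0.10). C1qb, a complement subunit, came next (-0.07), and Cx3cr1, the fractalkine receptor, was at -0.02.

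The 18 oligodendrocyte genes had a median of 0.006 (Aspa 0.13, Mobp -0.12, Mal -0.10) and the 9 precursor genes one of 0.001 (Olig2 0.13, Gpr17 -0.13, Neu4 -0.07). None of the members of these lists had an unadjusted p under 0.05. The 17 endothelial and mural genes had a median of -0.001, and Esam, Kdr (0.19) and Pdgfrb (0.07) had their smallest p-values. The median of the 6 thalamic or pallidal genes tested was 0.01 (Rora -0.06, Lef1 -0.07, Tcf7l2 0.07).

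4 lists had medians over 0.1 in size: cortical excitatory neuron, ependymal, blood and interferon response. The first 3 mark tissue that a striatal dissection can carry along. The 10 ependymal genes, markers of the ciliated cells that line the ventricle, had a median of 0.35, and 0 were below an unadjusted p of 0.05 (Rarres2 0.34, Ak7 0.43, Dynlrb2 0.42). Their mean log2 CPM ranged from 1.12 to 2.77 in Q140 Ccdc82-/- and from -0.22 to 2.12 in Q140. The Q140 male 1 library was the lowest of both groups, and the groups overlapped. Among Ccdc82+/- libraries, outside the comparison, the lowest value was -0.30. The median log2 fold change was 0.19 without Q140 Ccdc82-/- male 2 and 0.47 without Q140 Ccdc82-/- female 3. Foxj1, the regulator of motile cilia, had 8.33 to 21.01 CPM (median 13.8) in Q140 Ccdc82-/- and 5.48 to 15.2 CPM (median 11.5) in Q140.

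The 12 cortical genes had a median of 0.13 and 1 member below an unadjusted p of 0.05, Slc17a7, a vesicular glutamate transporter of cortical neurons (0.56, unadjusted p = 0.0466). Neurod6 (0.71) and Emx1 (0.50), transcription factors of cortical neurons, followed. Slc17a7 had 7.01 CPM in the Q140 Ccdc82-/- female 3 library, 1.93 to 3.88 CPM in the other Q140 Ccdc82-/- libraries and 1.56 to 3.43 CPM in Q140. Without that female, the log2 fold change of Slc17a7 was 0.21, that of Neurod6 0.37 and the list median 0.06. Emx1 was at 0.32 without Q140 Ccdc82-/- male 4. The part of cortical tissue in other values of that library was not tested.

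The 5 blood genes tested had a median of -0.24 and 0 members below an unadjusted p of 0.05 (Alas2 -0.57, Hbb-bt -0.43, Hba-a1 -0.24). Their mean log2 CPM ranged from -3.98 to 1.78 in Q140 Ccdc82-/- and from -4.38 to 1.82 in Q140, so single libraries decided the median: it was -1.16 without Q140 Ccdc82-/- female 3 and 0.03 without Q140 Ccdc82-/- male 4. The 10 choroid plexus genes tested, also of the ventricles, had a median of 0.03 (Sostdc1 0.56, Prlr 0.38, Otx2 0.32), and one of -0.02 without Q140 Ccdc82-/- female 2. Their mean log2 CPM ranged from -0.68 to 0.19 in Q140 Ccdc82-/- and from -0.90 to 0.03 in Q140.

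Of 24 interferon response genes tested, 5 were higher and 0 lower at unadjusted p under 0.05, and the list median was 0.22. The 5 were Oasl2 (0.53), Ifitm3 (0.22), Ifi44 (0.54), Mx2 (0.36) and Bst2 (0.33), genes of antiviral defence, and Isg15, a ubiquitin-like modifier, was at 0.44. With males alone Oasl2 was at -0.047 and Bst2 at -0.06. Oasl2 had 8.93 CPM in the Q140 Ccdc82-/- female 2 library, 2.20 to 3.67 CPM in the other Q140 Ccdc82-/- libraries and 1.97 to 2.87 CPM in Q140.

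That female also had the highest mean log2 CPM of the interferon list, 1.91, against 0.99 to 1.42 in the other Q140 Ccdc82-/- libraries and 0.96 to 1.30 in Q140. The list's mean was 1.24 ± 0.34 in Q140 Ccdc82-/- and 1.08 ± 0.12 in Q140 (SD). It was 1.24 ± 0.13 both in Ccdc82-/- and in WT. Without Q140 Ccdc82-/- female 2, the list median was 0.02 and the log2 fold change of Oasl2 was 0.17.

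**Figure D5:**
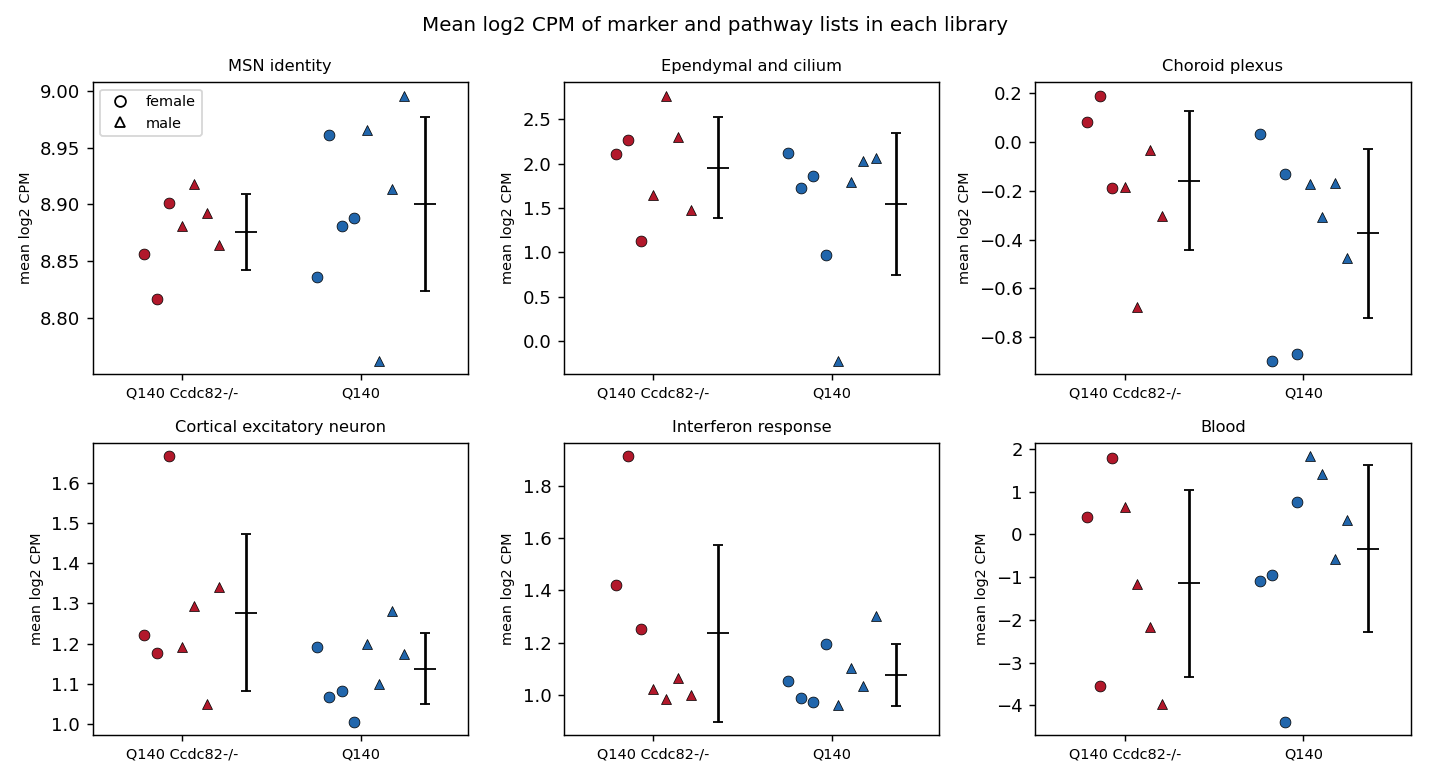
Mean log2 CPM (vertical axes, scales differ) of 6 lists in each Q140 Ccdc82-/- and Q140 library; circles are females, triangles males, bars mean and SD. The groups overlap in all panels, the lowest ependymal value is that of Q140 male 1 (-0.22), and the highest cortical and interferon values are those of Q140 Ccdc82-/- females 3 (1.67) and 2 (1.91).

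Genes of DNA mismatch repair and modifiers of Huntington's disease, the class in which the human CCDC82 locus was found, held 16 tested members. Ccdc82 was the 1 that fell. Exo1, the exonuclease of mismatch repair, was at 0.43 (unadjusted p = 0.0229) at low levels, 0.705 ± 0.138 CPM in Q140 Ccdc82-/- and 0.517 ± 0.142 CPM in Q140 (SD).

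The lesion recognition genes Msh3 and Msh6 were at -0.02 and -0.03. Msh3 averaged 26.8 ± 1.60 CPM in Q140 Ccdc82-/- and 27.1 ± 1.46 CPM in Q140. Mlh3 was at -0.002, Pms1 at 0.07, the nuclease gene Fan1 at -0.05 and the ribonucleotide reductase subunit Rrm2b at -0.02. The 95% intervals of these 6 genes all included 0. Between Q140 Ccdc82+/- and Ccdc82+/-, where 35% of all genes passed, 7 of the 16 rose and 1 fell.

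Pathways with a large Q140 effect gave medians close to 0. The 55 clustered protocadherins tested, neuronal adhesion molecules encoded in gene clusters, had a median of -0.03 between Q140 Ccdc82-/- and Q140 and of 0.32 between Q140 Ccdc82+/- and Ccdc82+/-. Pcdha6 had the smallest p (-0.32, unadjusted p = 0.00245), followed by Pcdhb18 (-0.11) and Pcdha11 (-0.24). The annotated spans of Pcdha6 and Pcdha11 overlap and end at the same base of chromosome 18 (37187657). How reads of the shared stretch were counted is not given. The 23 cAMP and dopamine signalling genes had medians of -0.008 and -0.46 in the same comparisons (Gng7 -0.04, Prkaca -0.03, Rgs14 -0.07). For the 21 immediate early genes, which follow neuronal activity, they were -0.007 and -0.40 (Jun -0.13, Nr4a2 0.23, Jund 0.04).

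Receptor, channel and release lists had medians between -0.02 and -0.009. The 27 glutamate receptor genes had -0.01, with Grid1 (-0.06) and Gria4 (-0.06) lower and Grik4 (0.18) higher at unadjusted p under 0.05. The 20 genes of GABA receptors and synthesis had -0.02 (Abat -0.03, Gabrg1 -0.07, Gabrb2 -0.05), and the 28 potassium channel genes had -0.009 (Kcnd2 -0.04, Kcna1 0.04, Kcnq5 -0.05). The 29 synaptic vesicle and release genes had -0.01. Syt7, a calcium sensor of release, was at 0.07 and Unc13c, a vesicle priming factor, at -0.15, both below an unadjusted p of 0.05, and Rims3 was at 0.05.

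Metabolic genes did not pass either. The 25 cholesterol biosynthesis genes had a median of -0.02 (Dhcr7 0.08, Srebf2 -0.05, Acat2 0.07). The 75 nuclear oxidative phosphorylation genes tested had a median of 0 (Ndufb6 0.10, Ndufv1 -0.03, Ndufb2 0.06). The 13 mitochondrially encoded genes had 0.07, with mt-Co2 (0.12) and mt-Atp6 (0.15) below an unadjusted p of 0.05 and mt-Co3 at 0.11. Mitochondrial transcripts took 6.01% ± 0.124 of counts in Q140 Ccdc82-/- and 6.03% ± 0.112 in Q140 (SD).

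Stress and quality control genes also did not pass. Heat shock and chaperone genes (20) had a median of -0.03 (Dnajb4 -0.08, Dnajb1 -0.17, Chordc1 -0.12), and genes of the unfolded protein and integrated stress response (20) also -0.03 (Mthfd2 -0.10, Asns -0.03, Dnajb9 -0.02). The 39 proteasome genes had -0.007 (Psmb2 -0.06, Psmd13 -0.04, Psmd2 -0.03). The 25 autophagy genes had -0.01, with Atg12 (-0.07) and Ulk2 (-0.05) below an unadjusted p of 0.05 and Lamp2 at -0.04. The 20 p53 targets had -0.005: Pmaip1 was at -0.41 and Bax at 0.07, both cell death genes below an unadjusted p of 0.05, and Perp was at 0.12. The 8 developmental transcription factors tested of 35 had a median of 0.08 (Irx3 0.47, Onecut1 0.28, Onecut2 0.08). Without Q140 Ccdc82-/- female 2, Onecut1 was at -0.10 and the median at -0.008.

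Beyond the lists, the 10 genes closest to the threshold had adjusted p-values of 0.364 (Pdk3) and 0.9997 (the rest) in edgeR. Pdk3, a pyruvate dehydrogenase kinase of the X chromosome, had 29.5 to 33.6 CPM (median 32.2) in Q140 Ccdc82-/- and 33.9 to 35.9 CPM (median 35.4) in Q140. Its groups did not overlap, yet the log2 fold change was only -0.13 (95% interval -0.19 to -0.07). Pdk3 and the next gene, Esam, were picked for their small p, which favours separate ranges. The share of all genes with separate ranges is not given here.

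Esam, an endothelial junction protein on chromosome 9, likewise had separate ranges, 12.4 to 13.3 CPM (median 12.8) in Q140 Ccdc82-/- and 14.1 to 15.3 CPM (median 14.4) in Q140, at -0.18. Fmo2, a flavin-containing monooxygenase, had 4.78 to 6.91 CPM (median 5.23) in Q140 Ccdc82-/- and 6.45 to 14.8 CPM (median 8.06) in Q140, at -0.78. The wide spread of Fmo2 lay in the Q140 group, and 1 Q140 library fell within the Q140 Ccdc82-/- range. Rida, an imine deaminase, was at -0.22, Abcc4, an efflux transporter, at -0.17 and Ssbp3, a transcriptional cofactor, at 0.09.

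The remaining 4 genes were scarce: Gm5535 (0.47), Gm6568 (0.76), B230319C09Rik (0.76) and Sprr1a (-0.85), a small proline-rich protein gene. Sprr1a averaged 0.138 ± 0.044 CPM in Q140 Ccdc82-/- and 0.26 ± 0.091 CPM in Q140 (SD).

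Mice without Q140, which share no library with the main comparison, gave other values for these 10 genes. Between Ccdc82-/- and WT, Pdk3 was at -0.03, Esam at -0.009, Fmo2 at 0.21, Rida at 0.06 and Abcc4 at 0.002. Gm5535 was at 0.03, Gm6568 at -0.15, Ssbp3 at -0.01, B230319C09Rik at 0.21 and Sprr1a at 0.16. Signs were the same in both contrasts for Pdk3, Esam, Gm5535 and B230319C09Rik. Q140 Ccdc82+/- mice, compared with the same Q140 libraries, gave -0.07 for Pdk3, -0.08 for Esam, -0.50 for Fmo2, -0.15 for Rida and -0.83 for Sprr1a, but these values share their controls with the main comparison.

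The effect of Ccdc82-/- with Q140 was tested against its effect without Q140. No gene passed in edgeR (0 of 19193, 826 at unadjusted p under 0.05), and DESeq2 and limma on FPKM also called 0. With the library number as a fixed block, chosen after seeing the data, edgeR called 167 genes (0.87%), 79 with a positive and 88 with a negative difference, and with it as a random block limma called 0. Rida (-0.29, unadjusted p = 0.000891) and Fmo2 (-0.99, unadjusted p = 0.00091) had differences with an adjusted p of 0.998. Ccdc82-/- against WT called Ccdc82 alone (0.00521%; 804 genes at unadjusted p under 0.05). For the difference between the male and the female Ccdc82-/- effect in Q140, edgeR called 0 of 19714 genes, with 1313 (6.66%) at unadjusted p under 0.05.

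Genes near Ccdc82 were read because a targeted locus can carry flanking sequence of another origin or act on its neighbours. Of 148 other genes tested within 10 Mb of its start, 0 were called and 8 had an unadjusted p under 0.05, 4 of them higher. The shares over all genes were 0.00521% called and 3.71% at unadjusted p under 0.05. The median log2 fold change of the 148 genes was -0.002. Of the 5 within 1 Mb, Jrkl, the head-to-head neighbour, averaged 10.3 ± 0.447 CPM in Q140 Ccdc82-/- and 10.13 ± 0.916 CPM in Q140 (SD). Its log2 fold change was 0.03, with a 95% interval of -0.08 to 0.14. Maml2, a Notch coactivator, was at 0.11, Mtmr2, a lipid phosphatase, at -0.09 (unadjusted p = 0.0109), Cep57, a centrosome protein, at 0.02 and Fam76b at -0.002.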

How the data were processed

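RNA from dissected striatum was extracted with a Qiagen RNeasy kit and sequenced as stranded TruSeq libraries, per the labels' protocols. The authors deposited raw read counts per gene and FPKM values (scaled by library total and gene length). Per the submitters' processing notes, STAR 2.7.5c, SAMtools 1.10 and HTSeq 0.12.3 were used with GRCm38 (mm10); settings and annotation release are not given in the sources used here. Positions came from GENCODE M21, which held 48349 of 48795 gene identifiers.

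The counts were tested with edgeR 4.0.16 in R 4.3.3 (filterByExpr, TMM, robust quasi-likelihood fit of genotype and sex over all 47 libraries, Benjamini-Hochberg adjusted p under 0.05). Alternatives used RLE factors, DESeq2 1.42.0, limma 3.58.1 on log2(FPKM + 0.1) for genes at 0.1 FPKM or more in at least 7 libraries, other covariates and reduced sets of libraries. The fit was checked on simulated counts.

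The genotypes compared and the gene lists were chosen with earlier results of these data known. Named genes were Ccdc82, Htt, all genes past the threshold, the 10 with the next smallest p, and the 3 with the smallest p in each list; not every gene so picked is reported here. Canonical MSN, glial and repair genes, further interferon genes, Q140-responsive genes and genes within 1 Mb of Ccdc82 were added after their values were seen. Counts matched the sex label in all 47 libraries. No pair of libraries of a group agreed within counting noise (chi-square per gene 3.80 to 20.7 over 49 pairs). Library names also carry a number, 19 over the 47 libraries and 4 of them held by 1 library; the labels do not say what it marks, and it was tried as a block after the data were seen.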

Additional observations from a re-analysis of the deposited data

Results flagged for a closer look

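In 14 of 348 sets of values (a named gene or list within Q140 Ccdc82-/- or within Q140), 1 library lay far from the rest of its own group. The limit used is Dixon's 95% critical value, by which chance would mark about 1 in 20 such sets.

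Of these, 4 were values of the Q140 Ccdc82-/- female 3 library. It had 7.01 CPM of Slc17a7 and 0.604 CPM of Neurod6, both cortical, and 1.19 CPM of Alas2 and 2.08 CPM of Hbb-bt, both of blood. The other Q140 Ccdc82-/- libraries had 1.93 to 3.88, 0.144 to 0.322, 0 to 0.439 and 0 to 0.852 CPM of these genes.

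The Q140 Ccdc82-/- female 2 library had 8.93 CPM of Oasl2 and 0.834 CPM of Onecut1, with the rest of its group at 2.20 to 3.67 and 0.142 to 0.352 CPM. Q140 Ccdc82-/- female 1 had 103.5 CPM of Mlc1 (the rest at 96.7 to 99.6) and 129.5 CPM of Kcnq5 (the rest at 142.5 to 150.8). Q140 Ccdc82-/- male 2 had 0.109 CPM of Sostdc1 (the rest at 0.276 to 0.355).

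Among Q140 libraries, female 1 had 108.5 CPM of Pdyn (the rest at 74.2 to 90.0 CPM) and male 3 had 7.71 CPM of Grik4 (the rest at 9.08 to 10.3 CPM). Female 3 had a mean log2 CPM of -4.38 for the blood list (the rest at -1.10 to 1.82). Male 2 had 6.42 for the heat shock list (the rest at 5.92 to 6.14) and 4.92 for the unfolded protein response list (the rest at 4.56 to 4.73). Without Q140 male 2, the median log2 fold change between Q140 Ccdc82-/- and Q140 was -0.002 for the heat shock list and 0.015 for the unfolded protein response list.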

How the results depend on the processing

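The count of 1 gene between Q140 Ccdc82-/- and Q140, always Ccdc82, was the same in all but 1 of 27 refits: RLE factors, limma on FPKM, DESeq2, tests of every gene without filtering, a model lacking sex, the plate column as a factor, only the groups compared, females or males alone, a replicate block, each library left out in turn, and the number in the library names as a random block. The exception was that number as a fixed block, which called 10 genes, Ccdc82 (-1.37) among them; the cause was not tested. Ccdc82 ranged from -1.57 (females alone) to -1.18 (males alone) on the log2 scale, and from -1.39 to -1.32 with 1 library left out; with the plate column as a factor it was -1.43. The test of the difference with and without Q140 called 0 genes in the refits run for it, except 167 (79 higher, 88 lower) with the library number as a fixed block; as a random block (correlation within a number 0.147) it called 0. Ccdc82-/- against WT called 1 gene with RLE factors and with DESeq2. The Ccdc82 level relative to Q140 was 39.5% with total counts or FPKM.

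The labels do not say whether replicate numbers pair the mice. Correlations of deviations between same-numbered libraries of a sex ran from -0.25 to 0.33 over 7 pairs, and 4 of 7 correlated best with their own number. So few pairs cannot decide whether the mice were paired. With the replicate block, 1 gene was called, the test of the difference called 0, and Ccdc82 was at -1.36.

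Of the 140 named genes, none besides Ccdc82 passed the threshold in any refit, except Gpr17 (-0.37) with the library number as a fixed block. Signs changed in 107 of 3775 recomputed values. Among genes with an unadjusted p under 0.05, they changed for Ndufb6 (-0.02), Oasl2 (-0.047) and Bst2 (-0.06) with males alone; the cause was not tested. The female and male fits rest on 3 and 4 Q140 Ccdc82-/- libraries, and genes at low counts have wide intervals.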
